A study of Mus musculus with 22 samples.

Results

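The immediate early genes examined here are 10 named genes: the EGR zinc finger genes Egr1 and Egr2, the AP-1 genes Fos, Fosb, Fosl1, Jun and Junb, the immediate early response genes Ier2 and Ier3, and the serum response factor gene Srf. Members were found by gene symbol among the probes of 2 Illumina mouse bead array platforms. Of the 10 genes, 9 had a probe on each platform (10 probes on MouseRef-8 and 11 on MouseWG-6), and Fosl1 was not analysed here because no probe carried its symbol. After a filter on detection, 8 members were among the 9207 genes tested on MouseRef-8 and 5 among the 11003 genes tested on MouseWG-6.

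Total RNA of 4 mouse embryonic stem cell lines was measured on 22 arrays, all from cells in serum-free N2B27 medium with LIF. R2i medium held PD0325901 (PD, an inhibitor of the ERK kinase MEK) and SB431542 (SB, which blocks the receptor kinases of the TGF-beta, Activin and Nodal ligands). 2i medium held PD and CHIR99021 (an inhibitor of the kinase GSK3), PD medium held only PD, and SB medium only SB. Lines B20 and B18, both from C57BL/6 blastocysts, each gave 3 arrays in R2i, 2 in 2i and 3 in PD on MouseRef-8, so every array of both lines came from cells under the MEK inhibitor. Both lines were derived and kept in R2i, and cells in 2i and in PD had been passaged there 10 times. In comparisons with R2i the medium and the move out of R2i therefore cannot be told apart. Line C17 (BALB/c) and line B4 (C57BL/6) each gave 1 array in R2i, 1 in PD and 1 in SB on MouseWG-6, and the derivation text of the labels names only B18 and B20. B20 and B18 each had a chip of their own, so line and chip cannot be told apart, and neither can medium and position on the chip. Nothing in the labels says whether replicate arrays came from separate cultures, so the p-values rest on differences among arrays that may be technical in origin.

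Between 10822 and 11670 probes (42.1% to 45.4%) were detected per array of B20 and B18, and between 13591 and 14366 (30% to 31.7%) per array of C17 and B4. All 7 pluripotent cell markers (Pou5f1, Sox2, Nanog, Zfp42, Esrrb, Tdgf1 and Dppa5a) were detected on every array of both platforms. Of 7 markers of feeder fibroblasts, 6, among them the collagen genes Col1a1, Col1a2 and Col3a1, were detected on no array. Of 4 neural markers, Sox1, Pax6 and Zic1 were detected on no array, and Nes was detected on 1 MouseRef-8 array (B18 in R2i). Levels here are log2 signals after background correction and normalisation within a platform, on a scale where probes that were not detected lie near 4 to 5. The platforms were normalised separately, and tests were run within a platform only.

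Immediate early genes are transcribed within minutes of a growth factor or serum stimulus, before any new protein is made, and their RNAs are short-lived. ERK phosphorylates ternary complex factors of the ETS family, such as Elk1, which sit with SRF on CArG boxes in the promoters of Egr1, Egr2, Fos and Srf itself. Other members are also driven through CREB and ATF sites. In mouse embryonic stem cells FGF4 keeps ERK active, and a MEK inhibitor lowers that signal. SRF also works with the actin-responsive cofactors MRTF-A and MRTF-B, which act without ERK.

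Promoter sequence was taken from RefSeq (assembly GRCm38.p6) for 7 of the 10 members, and that of Egr1, Fosl1 and Ier2 was not used here. The stretches below are upstream of a transcript start in that table and are shown because they place the known response elements beside the expression values. Capitals mark a CArG box in Srf and Egr2, the core CREB motif TGACG in Fos and Fosb, and the ATF-type site TGACATCA in Jun. Ier3, the member with no capitals, held none of the searched motifs.
Srf: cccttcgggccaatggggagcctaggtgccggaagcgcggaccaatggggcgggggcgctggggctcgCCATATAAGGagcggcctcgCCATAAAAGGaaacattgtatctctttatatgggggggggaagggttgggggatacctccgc
Egr2: gccctgttcctcagtCCATATATGGgcagc
Fos: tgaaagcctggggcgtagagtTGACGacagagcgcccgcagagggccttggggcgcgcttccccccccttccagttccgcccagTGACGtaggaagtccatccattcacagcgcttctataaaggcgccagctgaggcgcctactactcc
Fosb: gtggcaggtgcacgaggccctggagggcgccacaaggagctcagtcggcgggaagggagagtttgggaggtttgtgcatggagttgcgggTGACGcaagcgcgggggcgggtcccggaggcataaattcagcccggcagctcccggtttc
Jun: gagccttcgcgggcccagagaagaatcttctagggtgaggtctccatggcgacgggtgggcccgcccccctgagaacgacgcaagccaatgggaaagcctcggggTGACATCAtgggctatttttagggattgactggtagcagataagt
Ier3: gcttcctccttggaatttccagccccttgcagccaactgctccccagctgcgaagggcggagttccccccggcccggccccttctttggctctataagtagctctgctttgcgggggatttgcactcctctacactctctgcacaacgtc

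The Srf stretch is chr17:46556163-46556312 on the minus strand, the Egr2 stretch chr10:67537782-67537811 on the plus strand and the Fos stretch chr12:85473740-85473889 on the plus strand. Those of Fosb (chr7:19310046-19310195, minus), Jun (chr4:95052223-95052372, minus) and Ier3 (chr17:35821563-35821712, plus) complete the set. Each runs from 150 to 1 bases upstream of a start, except that of Egr2, which runs from 87 to 58. Srf has 2 CArG boxes, at 82 to 73 and 62 to 53 bases upstream, and Egr2 has 1 at 72 to 63 bases. Egr2 has several annotated starts, and the stretch shown was picked because it holds this box. Another Egr2 start had a different CArG box, and yet another had none. Fos has TGACG at 129 to 125 and 66 to 62 bases upstream, Fosb at 60 to 56 bases and Junb at 106 to 102 bases, while Jun has TGACATCA at 45 to 38 bases. TGACG is also found beside the CArG boxes, outside the bases printed: in Egr2 at 111 to 107 bases and, on the other strand, at 55 to 51, and in Srf at 201 to 197. No CArG box was found in the 250 bases searched for Fos. Both strands of the 250 bases before each of 32851 starts were searched. The CArG box was in 1.47% of them, TGACG in 17.8% and TGACATCA in 2.93%, and the motifs searched do not overlap one another in the stretches shown. A match describes the letters only, and says nothing of binding.

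In B20 and B18, Egr1, Egr2, Fos and Fosb ranged widely between replicate arrays of the same line and medium, and had their lowest medians in 2i. Egr1, a zinc finger activator and a direct target of ERK signalling through its ternary complex factor sites, was detected on all 16 arrays. Egr1 levels in B20 were 12.68, 12.43 and 12.48 in R2i, 9.91 and 11.41 in 2i, and 12.35, 10.70 and 12.79 in PD. In B18 they were 11.11, 10.34 and 10.99 in R2i, 10.42 and 11.54 in 2i, and 10.94, 12.34 and 12.50 in PD. The 3 B20 R2i arrays were close together and high, while 1 PD array of each line lay more than 1 log2 unit below the other PD arrays of that line. By median over both lines the order was PD (12.34), R2i (11.77) and 2i (10.91), and the ranges of all 3 media overlapped.

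Egr2, best known for its part in hindbrain patterning and in the myelin programme of Schwann cells, was high and low on much the same arrays. Its levels in B20 were 7.30, 7.29 and 7.51 in R2i, 4.67 and 5.43 in 2i, and 7.19, 4.85 and 7.77 in PD. B18 gave 5.84, 5.04 and 5.96 in R2i, 4.86 and 6.02 in 2i, and 5.85, 6.76 and 7.09 in PD. Egr2 was detected on 5 of 6 R2i arrays, 2 of 4 2i arrays and 5 of 6 PD arrays, so part of its spread reaches down to the background.

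Fos, the prototype of the AP-1 family, which binds DNA as a dimer with a JUN protein, had 10.54, 10.75 and 11.15 in B20 R2i, 10.07 and 10.26 in B20 2i, and 11.52, 10.07 and 12.07 in B20 PD. In B18 it had 10.20, 9.55 and 9.56 in R2i, 9.00 and 10.43 in 2i, and 9.90, 11.35 and 11.82 in PD. The second B20 PD array and the first B18 PD array were again the low ones of their groups. Fosb, a relative of Fos, had 6.86, 7.79 and 7.93 in B20 R2i, 5.47 and 5.78 in B20 2i, and 8.19, 5.36 and 8.63 in B20 PD. Its B18 levels were 6.27, 5.37 and 6.07 in R2i, 4.75 and 6.38 in 2i, and 5.99, 7.41 and 7.89 in PD. Fosb was detected on all 6 R2i arrays, 3 of 4 2i arrays and all 6 PD arrays, and the second B20 PD array was as low as the lowest R2i array.

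The JUN genes encode the partners of FOS proteins. Junb lay between 7.17 and 7.30 in B20 R2i, at 6.11 and 6.54 in B20 2i, and between 6.66 and 7.70 in B20 PD. In B18, Junb lay between 5.61 and 6.48 in R2i, at 6.27 and 6.39 in 2i, and between 6.48 and 7.29 in PD. Jun was close to the background, at 4.82 to 5.46 in R2i, 4.47 to 4.72 in 2i and 4.54 to 5.60 in PD, and was detected on 4 of 6, 0 of 4 and 4 of 6 arrays of those media. Both genes thus had a narrower range than Egr1, Egr2, Fos and Fosb.

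Srf encodes a transcription factor that binds CArG boxes. Among the other members whose promoters were searched, only Egr2 held such a box in the bases searched. Srf measured 8.82, 8.65 and 8.54 in B20 R2i, 7.83 and 7.90 in B20 2i, and 8.56, 8.16 and 8.57 in B20 PD. B18 gave 7.95, 7.88 and 8.05 in R2i, 7.34 and 7.90 in 2i, and 8.04, 8.34 and 8.45 in PD. All 4 2i arrays were below all 6 PD arrays, while the R2i range (7.88 to 8.82) overlapped that of 2i (7.34 to 7.90). A second Srf probe was detected on no array of either platform and is not used further.

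Ier3, a gene induced by growth factors, ERK and NF-kappaB that acts in cell survival, stayed between 7.62 and 8.06 on all 16 arrays. Its medians were 7.80 in R2i, 7.90 in 2i and 7.73 in PD, with overlapping ranges. Ier2, which encodes a nuclear protein, was detected on 1 of 16 arrays (4.45 to 5.26) and was not tested.

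**Figure D1:**
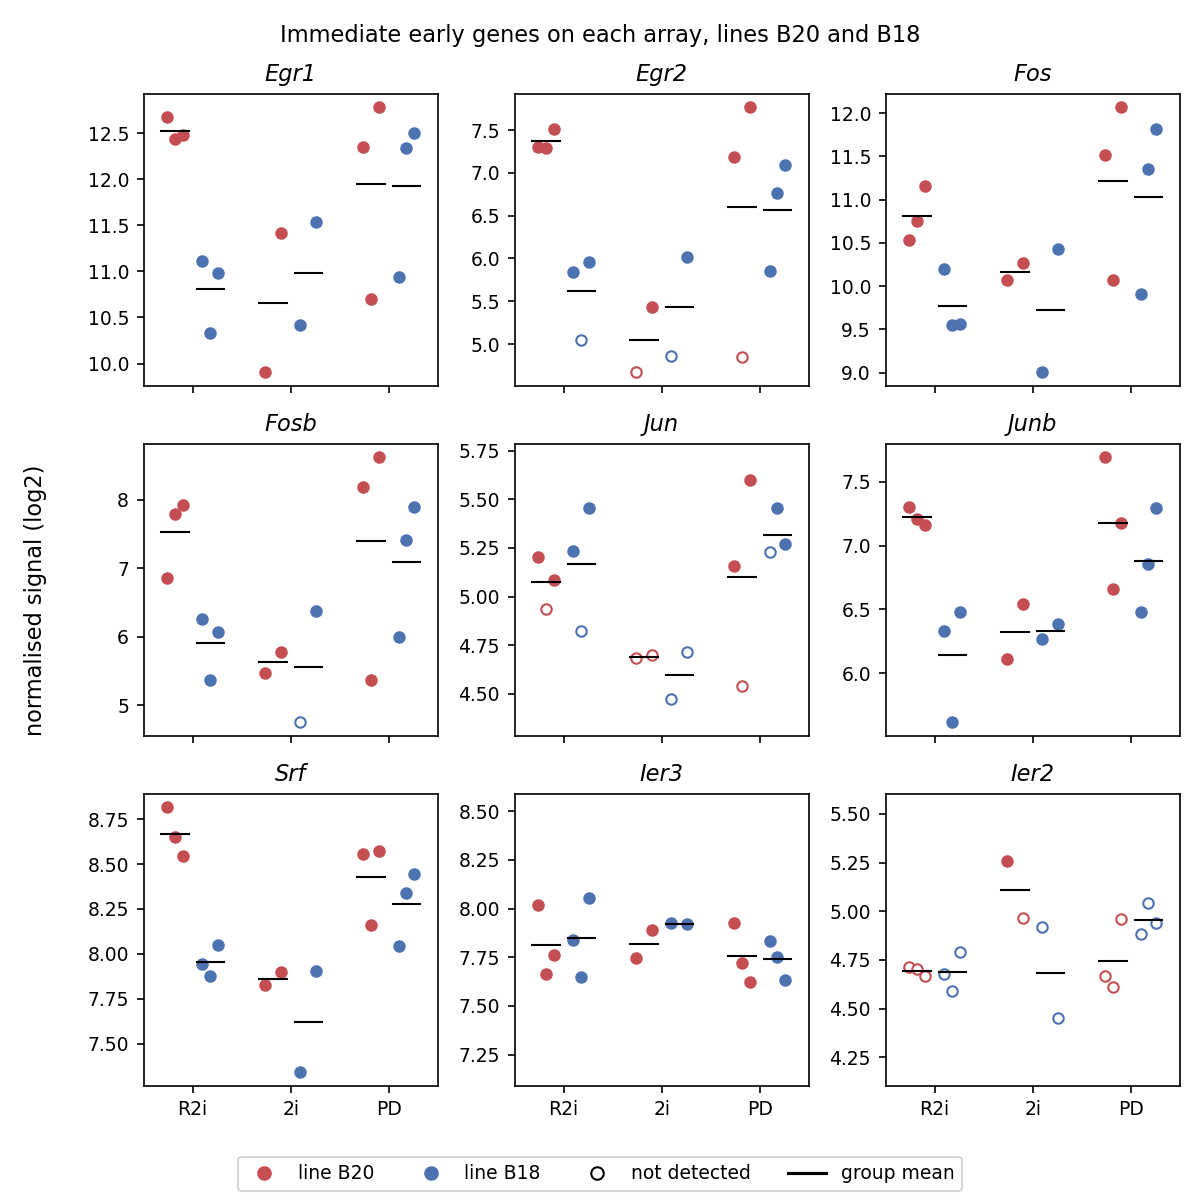
Normalised log2 signal of 9 members on each array of lines B20 and B18 in R2i, 2i and PD, with a bar at the mean of each line and medium and open circles where the probe was not detected; each panel has its own vertical axis. Egr1, Egr2, Fos and Fosb show 1 low PD array in each line, the 2i and PD points of Srf do not overlap, and Ier3 stays between 7.62 and 8.06.

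The spread between replicate arrays set the EGR and FOS genes apart from nearly all other genes. As the pooled SD within line and medium over the 16 arrays, Fosb had 1.04 log2 units, Egr2 0.84, Egr1 0.78 and Fos 0.75, which were ranks 1, 2, 3 and 4 of 9207 genes. No other gene exceeded 0.7, and the next widest were the BMP target Id1 (0.589), the coatomer gene Copz2 (0.571) and the early response gene Phlda1 (0.566). The median of all genes was 0.14, with quartiles of 0.11 and 0.18. Junb (0.38, rank 32) and Jun (0.29, rank 152) were also wide, while Srf (0.20, rank 1470) was a little above the upper quartile and Ier3 (0.15) near the median.

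In linear terms the 3 B20 PD arrays differed by up to 9.63-fold for Fosb, 7.6-fold for Egr2, 4.23-fold for Egr1 and 4.02-fold for Fos, and by 1.33-fold for Srf. The 3 B20 R2i arrays were far closer for Egr1 (1.18-fold) and Egr2 (1.16-fold), with Fosb at 2.11-fold. The 3 B18 PD arrays differed by 2.95-fold for Egr1, 3.78-fold for Fos and 3.74-fold for Fosb. Without the second B20 PD array, 3 of those members were still among the 4 widest genes. Across all genes replicate arrays correlated at 0.99 to 0.996, so the wide range was a property of few genes on otherwise similar arrays.

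**Figure D2:**
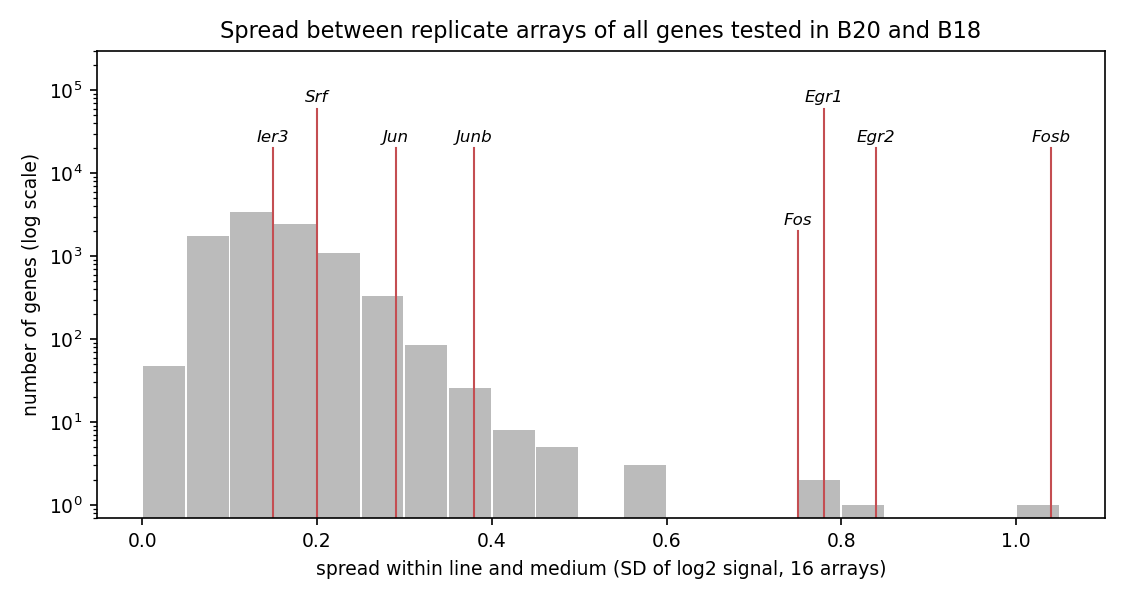
Number of genes (log scale) by the pooled SD of log2 signal within line and medium over the 16 arrays of B20 and B18, for all 9207 genes tested, with lines at the 8 members. Fosb, Egr2, Egr1 and Fos lie at 0.75 to 1.04, to the right of every other gene, while Ier3 (0.15) and Srf (0.20) lie within the bulk.

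The members moved together from array to array. Each array's value was taken as its deviation from the mean of its line and medium, which removes line and medium. The correlations are descriptions over 16 arrays that share their RNA, chip and normalisation. Only 10 degrees of freedom remain among these deviations over both lines, and fewer within a line. The 2 arrays of each 2i group deviate by equal and opposite amounts. The highest pair was Egr2 with Fosb (Pearson r = 0.95, Spearman rho = 0.89), at 0.95 within B20 and 0.98 within B18, followed by Fos with Fosb (r = 0.94) and Egr1 with Egr2 (r = 0.93). Leaving out the 2 arrays farthest from the median of the first-named gene gave 0.90, 0.92 and 0.90 for these pairs. Those arrays were B20 PD replicates 2 and 3 for Egr2 with Fosb. For the other pairs they were B20 PD replicate 2 and B18 PD replicate 1. Over all 28 pairs of the 8 members the median r was 0.73. The 21 pairs without Ier3 ranged from 0.59 to 0.95 (median 0.77), and the 7 with Ier3 from -0.23 to 0.44 (median 0.12). Leaving out B20 PD replicate 2 lowered the median of all pairs to 0.534.

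Against the mean of the 8 members, which contains each gene itself, r was 0.99 for Egr2, 0.96 for Fosb, 0.95 for Egr1, 0.93 for Fos, 0.85 for Srf, 0.81 for Jun, 0.80 for Junb and 0.08 for Ier3. On B20 PD replicate 2 the deviation was -2.03 log2 units for Fosb, -1.75 for Egr2, -1.24 for Egr1, -1.15 for Fos, -0.56 for Jun, -0.52 for Junb, -0.27 for Srf and -0.04 for Ier3. B18 PD replicate 1 was the next lowest, with a mean deviation of -0.57 against -0.95 for B20 PD replicate 2. The highest were B20 PD replicate 3 at 0.58, and B18 2i replicate 2 and B18 PD replicate 3, both at 0.39. The B20 R2i arrays stayed within -0.04 to 0.08.

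The 5 other genes most like the members' mean over the 16 arrays were Ccn1, Dusp1, Ccn2, Tusc2 and Zfp36. Ccn1 and Ccn2 encode secreted matricellular proteins, Dusp1 a phosphatase of MAP kinases, Tusc2 a mitochondrial protein and Zfp36 a protein that speeds the decay of AU-rich messages. Ccn1 had r = 0.96 (rho 0.97), at 0.96 in B20 and 0.97 in B18. Without the 2 arrays where the members' mean was farthest from its median, B20 PD replicate 2 and B18 PD replicate 1, it had 0.94. Dusp1 had r = 0.93 and Ccn2 0.92 (0.89 and 0.92 without those arrays), Tusc2 0.89 and Zfp36 0.88 (0.86 and 0.76 without them). Over all other genes the quartiles of r were -0.28 and 0.24. On B20 PD replicate 2, Ccn1 deviated by -0.73 and Dusp1 and Ccn2 by -0.4 log2 units each, smaller deviations than those of the EGR and FOS genes.

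**Figure D3:**
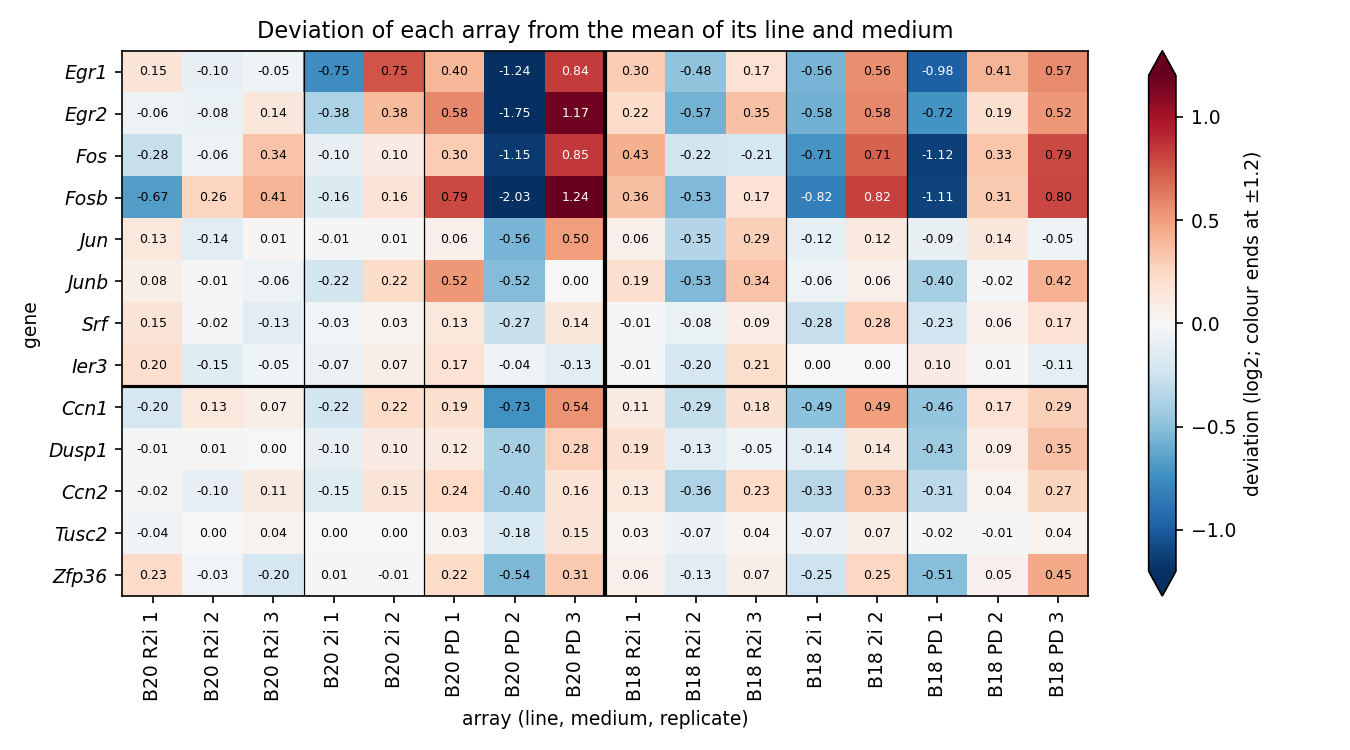
Deviation of each array (columns, by line, medium and replicate) from the mean of its line and medium in log2 units, for 8 members (above the line) and the 5 other genes most like their mean (below it). B20 PD replicate 2 and B18 PD replicate 1 are low across the EGR and FOS genes, Ccn1 and Zfp36, and Ier3 shows no such pattern.

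The comparison of 2i with PD asks what differs when CHIR99021 is present beside the MEK inhibitor. Nearly all members were lower in 2i: 7 of 8 passed the test downward and none upward, while 12.2% of all genes passed downward and 11.4% upward (21.3% and 5.76% with median scaling, under which the same 7 members passed). With no detection filter 3 of 9 passed (Jun, Junb and Srf), and in each line alone 1 or 2. Jun was detected on 4 of 6 PD arrays and 0 of 4 2i arrays, so it entered the test only through media where it was higher, and without it the count was 6 of 7. Passing means an adjusted p below 0.05 in limma, corrected over all 9207 genes (Benjamini-Hochberg). The median change of the members was -0.91 log2 units, against -0.01 for all genes. Fewer cells expressing a gene and less RNA per cell cannot be told apart in such bulk samples.

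Srf averaged 7.74 ± 0.27 in 2i (SD, n = 4) and 8.35 ± 0.22 in PD (n = 6), a change of -0.61 (SE 0.12, adjusted p = 0.001), and passed in each line alone (-0.57 in B20, adjusted p = 0.028, and -0.65 in B18, adjusted p = 0.012). Of the JUN genes, Junb changed by -0.70 (SE 0.20, adjusted p = 0.015). Since Jun was not detected on any 2i array, its change is only bounded, at least 1.06-fold lower in 2i than in PD (adjusted p = 0.015). Of the 8 members, Srf had the largest change relative to its SE.

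The widely ranging members changed more but were less certain. Fosb averaged 5.59 ± 0.68 in 2i and 7.25 ± 1.29 in PD, a change of -1.65 (SE 0.52, adjusted p = 0.03). Egr2 changed by -1.34 (SE 0.43, adjusted p = 0.031) and Fos by -1.18 (SE 0.38, adjusted p = 0.033). Egr1 averaged 10.82 ± 0.79 in 2i and 11.94 ± 0.88 in PD, a change of -1.12 (SE 0.39, adjusted p = 0.049). Egr1 no longer passed when any 1 of 12 of the 16 arrays was left out (adjusted p up to 0.25). Ier3 did not pass (0.12, SE 0.09, adjusted p = 0.38).

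Within lines the same direction was found for the 7 members in both, with fewer calls. In B20 alone 1 member passed downward (6.6% of genes) and in B18 alone 2, Jun and Srf (8.67% of genes). No member passed limma's test of a difference between the lines (0 of 8, and 0 had an unadjusted p below 0.05, with 1.72% of genes called). The count of 7 also depended on single arrays: it was 2 without B20 2i replicate 1 (Jun and Srf) or without B18 2i replicate 1 (Junb and Srf), and 3 without any 1 of B20 PD replicates 1 and 3 and B18 PD replicates 2 and 3 (Jun, Junb and Srf). Srf passed in all of these.

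Of 3 primitive endoderm markers tested in the same comparison, 2 were lower in 2i and none was higher, where 12.2% and 11.4% of all genes were. Sox7 was at -1.86 (SE 0.09), and Dab2 was not detected in 2i and at least 1.18-fold lower. Gata6, also tested, was detected on no 2i or PD array and was not called. Gata4, Sox17 and Foxa2 were detected on no array. The sum of the 6 markers was 7.45 to 7.62 in 2i and 8.28 to 8.87 in PD (log2 of the summed signal). The part of these markers in the members' change was not tested. The feeder sum was 7.5 to 7.67 in 2i and 7.31 to 7.38 in PD. Thy1, the only feeder marker detected on any of these arrays, was higher in 2i by 0.88 (SE 0.11).

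The comparison of R2i with 2i exchanges SB431542 for CHIR99021 beside the MEK inhibitor, and shares its 2i arrays with the comparison above. Srf and Egr2 were higher in R2i and no member was lower. Jun passed as well, which makes 3 of 8, but it was detected on 0 of 4 2i arrays and entered the test only through media where it was higher. Of all genes, 14.2% passed upward and 13.4% downward. Srf averaged 8.31 ± 0.40 in R2i (n = 6) and 7.74 ± 0.27 in 2i (n = 4), a change of 0.57 (SE 0.12, adjusted p = 0.0014). Egr2 changed by 1.25 (SE 0.43, adjusted p = 0.038). For Jun (adjusted p = 0.032) the bound is under 1, so no size is given. Egr1 (0.85, SE 0.39), Fosb (1.12, SE 0.52), Fos (0.35), Junb (0.36) and Ier3 (-0.04) did not pass, at adjusted p of 0.12, 0.12, 0.54, 0.19 and 0.79. The primitive endoderm sum was 7.72 to 8.12 in R2i and 7.45 to 7.62 in 2i, and its part was not tested.

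Values in the lines lay apart here. In B20 alone, Egr1 changed by 1.87 (SE 0.56, adjusted p = 0.031), Egr2 by 2.32 (SE 0.60, adjusted p = 0.015), Junb by 0.90 (SE 0.28, adjusted p = 0.036) and Srf by 0.81 (SE 0.16, adjusted p = 0.0028), so 4 of 8 passed upward against 7.56% of genes. In B18 alone 0 of 8 passed in limma (1, Jun, at an unadjusted p below 0.05), against 9.6% of genes, with Egr1 at -0.17, Egr2 at 0.18, Junb at -0.19 and Srf at 0.34. The differences between the lines, B20 minus B18, were 2.04 for Egr1 (SE 0.79, adjusted p = 0.24), 2.14 for Egr2 (adjusted p = 0.26) and 1.09 for Junb (adjusted p = 0.21). None of the 8 passed and 3 had an unadjusted p below 0.05, where 1.35% of genes were called, so a line difference was not shown. Over both lines, Srf was the only member that passed when B20 2i replicate 1, B18 2i replicate 1, or any 1 of R2i replicates 1 and 3 of either line was left out.

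The comparison of R2i with PD asks what SB431542 adds to the MEK inhibitor. No member passed in limma (0 of 8, 1 at an unadjusted p below 0.05), while 9.23% of all genes passed upward and 9.58% downward (5.28% and 13.4% with median scaling). Fos had the largest difference, -0.83 (SE 0.34, adjusted p = 0.1), with 9.55 to 11.15 in R2i and 9.90 to 12.07 in PD. Without B20 PD replicate 2 it was -1.12 (adjusted p = 0.018), and without B18 PD replicate 1 it was -1.11 (adjusted p = 0.021), and over all alternatives tried its adjusted p ranged from 0.018 to 0.67. Fosb passed only without B20 PD replicate 2 (-1.04, adjusted p = 0.045, range over alternatives 0.045 to 0.93). Srf was at -0.04 (SE 0.10), Jun at -0.09, Egr2 at -0.09, Egr1 at -0.27, Junb at -0.34 and Ier3 at 0.08. The primitive endoderm sum was 7.72 to 8.12 in R2i and 8.28 to 8.87 in PD, but its genes did not move together. Of 3 markers tested, 1 was higher in R2i and 1 lower, with a median change of -0.02. Sox7 was the lower one, at -1.16 (SE 0.08), and Gata6 the higher one (limma, adjusted p = 0.00058). Gata6 stayed below detection throughout PD and its bound is under 1, so no size is given for it. The part of these markers in the members' values was not tested.

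In B20 alone Egr1 was at 0.58 and Egr2 at 0.77, and in B18 alone Egr1 was at -1.11 and Fos at -1.25, with 0 of 8 passing in each line (limma; 0 in B20 and 4 in B18 at an unadjusted p below 0.05). Of all genes, 9.29% passed in B20 alone and 15.1% in B18 alone. Differences between the lines were 1.70 for Egr1 (adjusted p = 0.2), 1.72 for Egr2 (adjusted p = 0.23), 0.79 for Junb (adjusted p = 0.24) and 0.56 for Srf (adjusted p = 0.15). None of the 8 passed, with 4 at an unadjusted p below 0.05 and 4.27% of genes called.

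**Figure D4:**
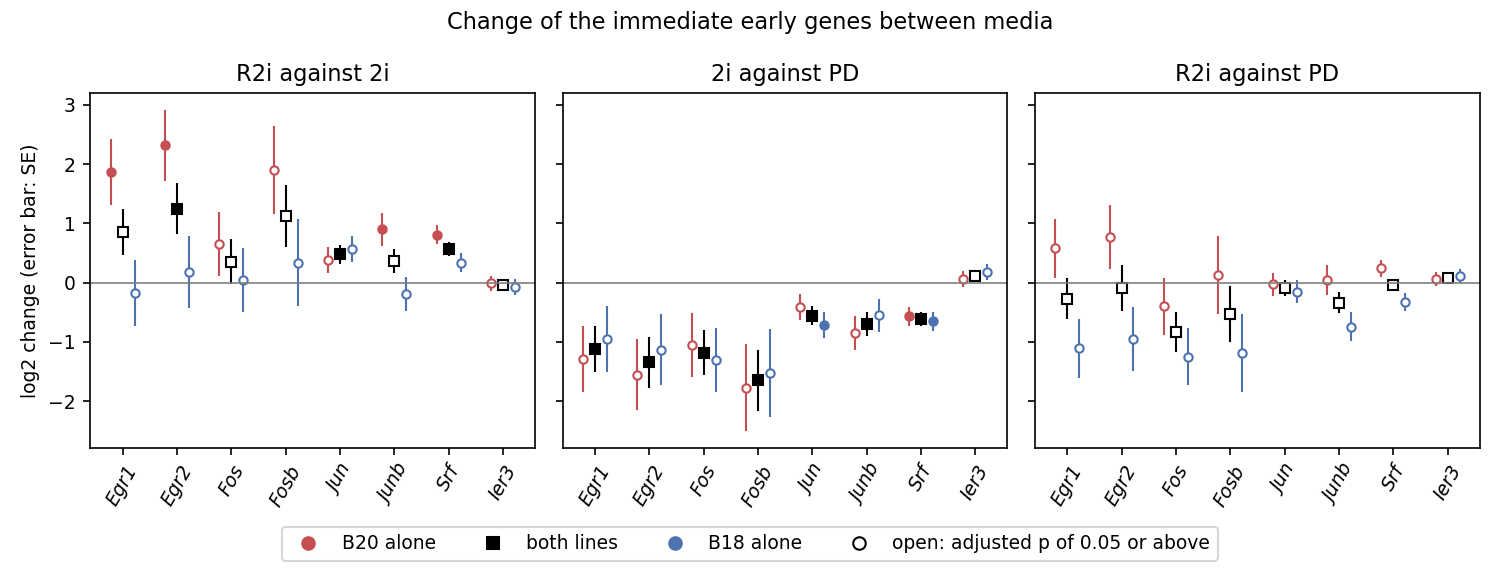
Log2 change of 8 members between media, with the moderated SE, in B20 alone, both lines together and B18 alone; filled symbols have an adjusted p below 0.05. In 2i against PD 7 of 8 members lie below 0 and pass over both lines, in R2i against 2i 3 pass upward, and in R2i against PD none passes.

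Averaged over the 3 media, 2 members were higher in B20 than in B18 and none was lower, while 15.7% of all genes passed upward and 17.3% downward (43.6% and 5.62% with median scaling, which moved the median of all genes by 0.157 log2 units). Srf was higher by 0.37 (SE 0.09, adjusted p = 0.0062) and Junb by 0.46 (SE 0.15, adjusted p = 0.031). For Srf the B20 R2i arrays (8.54 to 8.82) lay above the B18 R2i arrays (7.88 to 8.05), and for Junb 7.17 to 7.30 stood above 5.61 to 6.48. In the other media the lines lay closer. Junb averaged 6.33 in both lines in 2i, and 7.18 in B20 and 6.88 in B18 in PD. Srf averaged 7.86 in B20 and 7.62 in B18 in 2i, and 8.43 in B20 and 8.28 in B18 in PD. Without B20 PD replicate 2 the count was 5, with Egr2, Fos and Fosb added, and Srf alone passed without any 1 of B20 R2i replicate 1, B20 2i replicate 2, B20 PD replicate 1, B18 R2i replicate 2, B18 2i replicates 1 and 2, and B18 PD replicate 1.

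C17 and B4 are the lines with an arm free of the MEK inhibitor. Egr1 was much higher with SB alone than in either medium with PD. It measured 6.85 in C17 and 5.34 in B4 in R2i, 4.81 in C17 and 5.02 in B4 in PD, and 9.55 in both lines in SB. PD against SB gave -4.63 log2 units (SE 0.33, adjusted p = 0.00012), with -5.12 to -2.85 over the alternatives. R2i against SB gave -3.45 (SE 0.33, adjusted p = 0.0027), which became -2.65 without the B4 R2i array, -4.26 without the C17 R2i array and -2.39 without background correction. In PD, Egr1 was detected in B4 and not in C17, so its level there is close to background and the size of the PD change is uncertain. Of 6 primitive endoderm markers 4 were detected on no array, and the sum of the 6 was 7.48 to 7.76 in R2i, 7.39 to 7.52 in PD and 7.56 to 7.61 in SB. The neural marker Nes was detected on both R2i arrays (5.17 and 5.31) and both PD arrays (5.44 and 5.37) and on neither SB array, at least 1.14-fold higher in R2i and 1.28-fold higher in PD than in SB. Their part in the Egr1 change was not tested. Each medium had 1 array per line, and with medium and line as additive terms 2 residual degrees of freedom remained.

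Of 5 members tested, Egr1 was the only one to pass in R2i against SB (1.18% of genes passed downward and 1.02% upward, or 2.05% and 0.954% with median scaling), and the only one in PD against SB (2.45% downward and 2.78% upward). Without the B4 SB array Junb passed too in R2i against SB (2 members). Egr1 passed against SB in all but 1 of the alternatives in which it was tested. That exception kept probes that were detected nowhere (adjusted p = 0.19 for R2i and 0.071 for PD). R2i against PD gave 1.18 for Egr1 (SE 0.33, adjusted p = 0.26). There 0 of 5 members passed in limma and 1, Egr1, had an unadjusted p below 0.05, with 0.136% of genes called in either direction. Without the B4 R2i array that change was 1.99 (adjusted p = 0.0016), and without the B4 PD array 1.66 (adjusted p = 0.012). Over its alternatives the adjusted p ranged from 0.0016 to 0.98.

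The FOS and JUN genes were low in C17 and B4. Fos measured 5.17 in C17 and 4.78 in B4 in R2i, 4.94 in C17 and 4.99 in B4 in PD, and 5.20 in C17 and 5.40 in B4 in SB. Detected on both SB arrays and no PD array, Fos was at least 1.17-fold lower in PD than in SB, which did not pass (adjusted p = 0.34). Junb had 5.92 in C17 and 5.28 in B4 in R2i, 5.94 in C17 and 5.54 in B4 in PD, and 6.66 in C17 and 5.57 in B4 in SB. It was higher in C17 in each medium, by 0.71 (SE 0.14, adjusted p = 0.0057), where 15% of genes passed upward and 16.7% downward (10% and 23% with median scaling). Junb was the only member to pass between those lines, and Egr1 joined it without the C17 PD or the B4 PD array (2 members).

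Srf had 7.99 in C17 and 7.97 in B4 in R2i, 8.07 in C17 and 8.24 in B4 in PD, and 7.57 in C17 and 7.95 in B4 in SB. Ier3 had 8.93 in C17 and 8.86 in B4 in R2i, 8.93 in C17 and 8.84 in B4 in PD, and 8.71 in C17 and 8.24 in B4 in SB. Neither passed against SB, with Ier3 at 0.41 (adjusted p = 0.19) and Srf at 0.40 (adjusted p = 0.19) in PD against SB. Egr2, Fosb, Jun, Ier2 and a second Junb probe were detected on no array of C17 or B4.

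**Figure D5:**
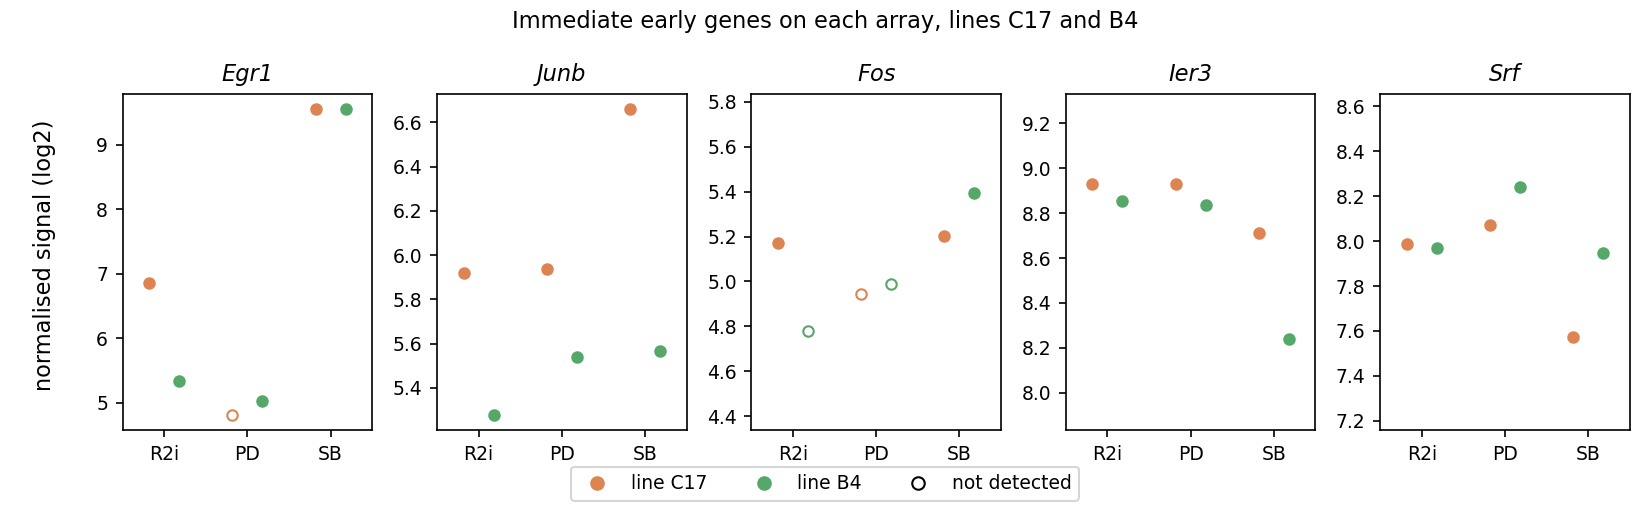
Normalised log2 signal of the 5 members tested in lines C17 and B4 in R2i, PD and SB, 1 array each, with open circles where the probe was not detected; each panel has its own vertical axis. Egr1 is at 9.55 in SB in both lines and at 4.81 to 6.85 in the media with PD, and Junb is higher in C17 in each medium.

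In raw signal over the mean of the negative control beads, Egr1 was at 12.4 to 73.2 in R2i and 17.9 to 81.3 in PD in B20 and B18, and at 1.23 to 1.91 in R2i and 1.12 to 1.16 in PD in C17 and B4. Fos was at 7.34 to 23.5 in R2i and 9.36 to 50.6 in PD in B20 and B18, and at 1.1 to 1.19 in R2i and 1.15 in PD in C17 and B4. Under the same inhibitors the Egr1 and Fos probes were therefore far above background in B20 and B18 and near it in C17 and B4. Over all media, Egr2 was at 1.09 to 3.32 in B20 and B18 (median 1.41) and 1.03 to 1.18 in C17 and B4. Fosb was at 1.1 to 5.42 (median 1.54) and 0.974 to 1.05 in the same pairs, so both lay near background on many arrays of B20 and B18 too. Lines, chips and platform differ together between the pairs and cannot be told apart, and the platforms' own normalised levels were not compared.

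Other genes of the pathway were described from lists chosen with earlier results of these data known. Of 29 tested among 42 other early response genes, 1 was higher and 9 were lower in 2i than in PD, and 11 were higher and 2 lower in R2i than in 2i. Of all genes, 11.4% were higher and 12.2% lower in the first comparison, and 14.2% and 13.4% in the second. The medians of the list were -0.22 and 0.15 log2 units, against -0.01 and 0.01 for all genes. The 10 calls in 2i against PD were 6 in B18 alone, and the 13 in R2i against 2i were 8 without B20 2i replicate 1. Ccn1 was lower in 2i than in PD by 1.88 (SE 0.23, adjusted p = 1.5e-05), and R2i against 2i gave 2.10 (SE 0.23) for it. Ccn2 was at -1.32 and 1.44 (SE 0.16 each) in the same comparisons and Rhob, a small GTPase gene, at -0.88 and 0.95 (SE 0.13 each). Atf3, a stress-induced AP-1 partner, was at -0.73 in 2i against PD (SE 0.18), and Klf6 at 1.13 in R2i against 2i (SE 0.07). In R2i against PD 5 were higher and 2 lower, where 9.23% and 9.58% of all genes were, led by Gadd45g (0.83), Plk2 (0.52), Plk3 (0.48) and Klf6 (0.43), while Dusp1, which tracked the members between arrays, was lower by 0.43 (SE 0.13, adjusted p = 0.026). In C17 and B4, 3 of 28 tested were higher and 2 lower in PD than in SB, with Gadd45b at 1.14 (SE 0.19) and Phlda1 at -1.55 (SE 0.27). That count of 5 was 1 without the C17 PD array, 3 without the C17 SB array and 8 without any 1 of the B4 R2i, C17 R2i and B4 SB arrays, and 2.78% and 2.45% of all genes were called.

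Several actin and cytoskeletal targets of SRF were also lowest in 2i. Of 7 tested, 5 were lower in 2i than in PD and none was higher, and 4 were higher and 1 lower in R2i than in 2i, beside 12.2% of all genes lower in 2i and 14.2% higher in R2i. Single arrays moved both counts. The count in 2i against PD was 2 without B18 2i replicate 2, and 3 without any 1 of B20 2i replicates 1 and 2, B18 PD replicates 1 and 3 and B20 PD replicate 2. That in R2i against 2i was 2 without B18 2i replicate 2, and 3 without any 1 of the other 2i arrays, the 3 B18 R2i arrays and B20 R2i replicate 2. The calponin gene Cnn2 (-0.64, SE 0.13), the tropomyosin gene Tpm1 (-0.42, SE 0.08), Zyx (-0.38, SE 0.11) and Flna (-0.35, SE 0.12) were the largest of the falls, and the median of the 7 was -0.35, against -0.01 for all genes. In R2i against 2i, Cnn2 was at 0.72, Tpm1 at 0.59, Zyx at 0.32 and Actb at 0.26. The Actb value is that of its brightest probe, and with the mean of its probes the sign was reversed. Zyx had the opposite sign in 2i against PD in B18 alone. In R2i against PD none of the 7 passed in limma, where 9.23% of all genes passed upward and 9.58% downward.

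Feedback genes of ERK, which are transcribed in response to its activity, were lower with PD than with SB. In C17 and B4, 6 of 7 were lower in PD than in SB and 5 of 7 were lower in R2i than in SB, with none higher in either (2.45% and 1.18% of all genes were lower). With no detection filter these counts were 1 and 0. The phosphatase genes Dusp4 (-3.19, SE 0.15) and Dusp6 (-2.14, SE 0.19), the ETS gene Etv4 (-2.69, SE 0.38) and the inhibitor gene Spry4 (-1.84, SE 0.21) were lower in PD than in SB, beside Egr1. In B20 and B18, where all media held PD, 2 of 7 (Etv4 at 0.52 and Etv1 at 0.49) were higher and 1 (Dusp6 at -0.35) was lower in 2i than in PD, with 11.4% and 12.2% of all genes called. That count of 3 was 0 without B18 2i replicate 1, and 1 without B18 2i replicate 2 or B20 2i replicate 1. Dusp4 was higher in R2i than in 2i (0.63, SE 0.09) and than in PD (0.37, SE 0.08), and Spry4 did not pass in any comparison of B20 and B18.

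The kinases and ternary complex factors upstream of the members moved little. Of 12 tested in B20 and B18, 2 were higher (Rps6ka3 at 0.28 and Elk3 at 0.25) and 1 lower (Map2k2 at -0.19) in 2i than in PD, which is near the 11.4% and 12.2% of all genes. None was called without B20 2i replicate 1, and 1 without B20 PD replicate 1 or 2. Map2k2, which encodes a MEK kinase, was the only one called in R2i against 2i (0.24), where 14.2% of all genes were higher and 13.4% lower. In C17 and B4 the SRF partner gene Elk3 was lower in PD than in SB by 1.53 (SE 0.15) and in R2i than in SB by 1.04 (SE 0.15). Elk3 was the only 1 of 12 tested that was called in each, where 2.45% and 1.18% of all genes were lower. Heat shock genes, which respond to protein stress, split in 2i against PD with 1 of 6 higher (Bag3 at 0.89) and 2 lower (Hsph1 at -0.46 and Dnajb1 at -0.27). Of all genes, 11.4% were higher and 12.2% lower there. With median scaling 5 heat shock genes were called in all, where 5.76% of all genes were higher and 21.3% lower.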

How the data were processed

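Transcripts were measured on 22 bead arrays. The deposited probe profiles hold bead intensity per probe without background subtraction or normalisation, exported from GenomeStudio, per the file headers and the submitters' processing notes. Beside each intensity stands a detection p-value, deposited by the authors, that sets the probe against the array's negative control beads. The authors also deposited normalised log2 values, which the submitters' processing notes link to limma (versions are not given in the sources used here). They ran at a near constant offset of 4.153 to 4.163 (B20 and B18) and 4.141 to 4.151 (C17 and B4) from the values used here. Another 44 columns of p-values, beside the log2 values and the control probes, were not used.

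Intensities were corrected and quantile normalised with neqc (limma 3.58.1, R 4.3.3, offset 16) on each platform separately. Probes with a detection p below 0.01 on at least 2 arrays were kept, and the brightest probe stood for each gene. Symbols were updated by gene ID or accession through a RefSeq table (GRCm38.p6). B20 and B18 were fitted with 1 mean per line and medium (10 residual degrees of freedom), with both lines weighted equally, and C17 and B4 with additive medium and line (2 residual degrees of freedom). Statistics were moderated with eBayes and adjusted by Benjamini and Hochberg's method over all genes of a platform. Errors of changes are moderated standard errors. Where a probe was not detected in a whole group, its fold is a bound against the lowest detected signal of each array.

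The members and the related lists were chosen with earlier results of these data known. The text names all 10 members, up to 4 genes per related list and comparison that passed with the largest change, Dusp6, Spry4, and the 5 other genes most correlated with the members' mean. Also given are Id1, Copz2 and Phlda1, the next widest genes in spread, which were chosen after their values were seen. One cell line field of the C17 PD and C17 SB labels names B4, and the titles, which name C17, were used. Alternatives tried were no background correction, median scaling, the deposited log2 values, detection on every array, no detection filter, the mean of probes, array weights, the replicate number as a block, each line alone, and each array left out. The fits were tested on simulated data. The number of arrays limits the precision. The comparison of R2i with PD for the upstream kinase genes is not reported here.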

Additional observations from a re-analysis of the deposited data

Results flagged for a closer look

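None of the members gave a line difference that passed, but 10 tests of related genes did, each by limma's test of the difference in change (B20 minus B18, adjusted over all genes). In R2i against PD, Gadd45g, a growth arrest gene, differed by 1.15 (1.41 in B20 and 0.26 in B18, adjusted p = 0.014) and Plk3, a polo-like kinase gene, by 0.58 (0.77 in B20 and 0.19 in B18, adjusted p = 0.047). Klf6, a zinc finger gene, differed by -0.6 (0.13 in B20 and 0.73 in B18, adjusted p = 0.018). For Ier5l the difference was -0.67 (-0.4 in B20 and 0.27 in B18, adjusted p = 0.019), and for Rhob -0.94 (-0.4 in B20 and 0.55 in B18, adjusted p = 0.027), so both genes had opposite signs in the lines.

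In R2i against 2i, Plk3 differed by 0.74 (0.83 in B20 and 0.09 in B18, adjusted p = 0.048), Klf6 by -0.63 (0.82 in B20 and 1.45 in B18, adjusted p = 0.047) and the chaperone cofactor gene Bag3 by -0.64 (-0.62 in B20 and 0.02 in B18, adjusted p = 0.046). In 2i against PD, the ETS gene Etv5 differed by 0.82 (0.57 in B20 and -0.25 in B18, adjusted p = 0.045) and the polo-like kinase gene Plk2 by 0.89 (0.22 in B20 and -0.67 in B18, adjusted p = 0.041). Line and chip cannot be told apart in any of these.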

How the results depend on the processing

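Counts of members passing depended on the line, the filter, single arrays and the replicate block. In 2i against PD, 7 members also passed without background correction, with median scaling, with the deposited log2 values and with the mean of probes, and 6 with array weights. The count was 4 among genes detected on every array (5 tested), 3 with no detection filter (9 tested), 1 in B20 alone, 2 in B18 alone, and 2 to 7 with each array left out. In R2i against 2i, 3 became 1 with detection on every array, 1 with no detection filter, 0 in B18 alone, and 1 to 4 with an array left out. In R2i against PD, 0 became 1 (Fos) with median scaling and 0 to 2 with an array left out. B20 against B18 gave 2, against 4 with median scaling (Egr1 and Fos added), 1 with no detection filter and 1 to 5 with an array left out. Detection on every array drops Egr2, Fosb and Jun from the test, and keeping undetected probes enlarges the number of genes tested, while other causes were not tested. Of the 4 widest genes, 2 were members among the genes detected on every array, and 3 to 4 with an array left out.

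In C17 and B4, R2i against SB gave 0 with detection on every array (3 members tested, without Egr1) and 0 with no detection filter, and so did PD against SB. C17 against B4 gave 0 with no detection filter. With an array left out, and the lone array of an arm assumed to vary like the rest, the counts were 1 to 2 in R2i against SB, 1 in PD against SB, 0 to 1 in R2i against PD and 1 to 2 in C17 against B4. Median r over member pairs was 0.534 to 0.768 with an array left out, and no member's line difference passed under any alternative.

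Srf in 2i against PD passed under all 26 alternatives (-0.75 to -0.46), and Egr1 under 9 of 26. Changes of sign were found for Actb in R2i against 2i with the mean of probes (-0.047), Bag3 there in B18 alone (0.017), Zyx in 2i against PD in B18 alone (0.046) and Elk3 in B20 against B18 with median scaling (0.006). Median scaling moved the median of all genes by over 0.1 in 2i against PD (-0.101), B20 against B18 (0.157) and C17 against B4 (-0.103).

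Replicate numbers did not pair the arrays: over 14 pairs of the same number, line and other medium the correlation of deviations was -0.12 to 0.13, above 0.1 in 2. With the replicate block within lines 3 members passed in 2i against PD (Jun, Junb and Srf), 1 in R2i against 2i (Srf) and 1 in B20 against B18 (Srf), and it changed no other count of members. Signals of Jun, Egr2, Fosb and Ier2, and of most members in C17 and B4, lay near the negative controls, which limits what can be seen of them.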
